A study of Mus musculus with 2 samples.

Results

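Transcripts of matrix metalloproteinases (MMPs) and of tissue inhibitors of metalloproteinases (TIMPs) were measured in skin wounds of newborn mice with and without PU.1. The 10 genes described are 7 MMP genes (Mmp2, Mmp3, Mmp9, Mmp10, Mmp12, Mmp13 and Mmp14) and 3 inhibitor genes (Timp1, Timp2 and Timp3). They were chosen by symbol as enzymes of leukocytes, keratinocytes and fibroblasts together with Timp genes, and all 10 were found among the 24346 genes listed. PU.1, encoded by Spi1, is a transcription factor that blood cells of the myeloid lineage require, and PU.1 knockout mice were bred on C57BL/6J, the strain given for both groups. The tissue was back skin of pups aged 1 day at injury, cut through its whole thickness and collected after 24 h, and the study describes the genotypes as littermates. The WT and the PU.1 KO group each gave 1 bulk mRNA library. Neither the number of pups in a library nor their sex is given in the sources used here, and the design text calls the wounds excisional where the methods call them incisional. The knockout is present in every cell of the animal and is not restricted to blood cells.

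MMPs are zinc-dependent enzymes that cut collagens, laminins and other matrix proteins as well as cytokines and receptors. Most are secreted as inactive precursors and are switched on by removal of a propeptide, for which plasmin, other MMPs, furin and mast cell or neutrophil proteases are known. TIMPs bind the active site of MMPs and block it, and TIMP2 together with MMP14 also takes part in the activation of MMP2 at the cell surface. In wounds, MMP3 and MMP10 are stromelysins of fibroblasts and keratinocytes, MMP9 is a gelatinase of neutrophils and migrating keratinocytes, and MMP12 is the elastase of macrophages.

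All values are FPKM (fragments scaled to the length of the transcript and to the depth of the library), a unit in which levels of genes of different length can be set side by side. With 1 library per genotype there is no spread between animals and no test, so that differences compare these libraries only. The intervals in parentheses are 95% exact binomial (Clopper-Pearson) intervals on estimated reads and cover counting error only. The estimated depth came to 1.38e+07 fragments for WT against 1.58e+07 for PU.1 KO, which makes 1 read worth 1.15 times more FPKM in the WT library. Spi1 was at 35.4 FPKM in WT and 1.45 in PU.1 KO, 24.3-fold lower (17.9 to 34.1). Xist was listed at 0 in WT and at 9.48 FPKM in PU.1 KO, and 4 of 4 Y-linked genes were listed at 0 in PU.1 KO, so that genotype and sex cannot be told apart in any value given here.

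The genes lie at 7 places in the genome (GRCm38, the assembly of mm10, GENCODE annotation). Mmp13 (chr9:7272514-7283331), Mmp12 (chr9:7344381-7369499), Mmp3 (chr9:7445822-7455975) and Mmp10 (chr9:7502352-7510240) are in the MMP cluster of chromosome 9, each with 10 exons on the plus strand. Mmp2 (chr8:92827291-92853420) and Mmp9 (chr2:164940780-164955850), the gelatinases, have 13 exons each. Mmp14 (chr14:54431612-54445364), the membrane-type MMP, has 10 exons. Timp1 (chrX:20870166-20874735) has 6 exons, and Timp2 (chr11:118301069-118355740, minus strand) and Timp3 (chr10:86300372-86349506) have 5 each.

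The bases before the start of transcription are shown for the cluster members and, for comparison, for Mmp14 and Timp1 outside it. The sequences are the 100 bases before the RefSeq start on GRCm38.p6, read from 5′ to 3′ along the gene. Capitals mark matches, searched on both strands, to the letters TGAGTCA, which AP-1 factors such as FOS and JUN bind, or to the TATA box, searched as TATAAA, where the transcription machinery is placed. They also mark GC boxes, which SP1 binds and which were searched as GGGCGG, and the core of a PU.1 site, searched in the form that reads GAGGAAG.
Mmp3, chr9:7445722-7445821, plus strand: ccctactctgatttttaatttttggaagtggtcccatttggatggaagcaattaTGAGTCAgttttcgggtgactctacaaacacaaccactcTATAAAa
Mmp10, chr9:7502242-7502341, plus strand: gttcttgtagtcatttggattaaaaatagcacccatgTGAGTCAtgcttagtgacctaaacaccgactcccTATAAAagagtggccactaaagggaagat
Mmp13, chr9:7272414-7272513, plus strand: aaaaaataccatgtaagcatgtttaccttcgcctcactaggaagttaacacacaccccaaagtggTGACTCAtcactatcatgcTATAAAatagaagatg
Mmp12, start 2, chr9:7347274-7347373, plus strand: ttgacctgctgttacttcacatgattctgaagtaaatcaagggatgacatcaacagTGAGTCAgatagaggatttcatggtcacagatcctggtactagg
Mmp14, chr14:54431498-54431597, plus strand: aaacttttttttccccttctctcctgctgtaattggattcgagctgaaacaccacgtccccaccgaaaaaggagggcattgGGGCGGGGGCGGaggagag
Timp1, chrX:20870066-20870165, plus strand: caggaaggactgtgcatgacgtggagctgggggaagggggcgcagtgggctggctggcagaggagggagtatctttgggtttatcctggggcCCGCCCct
An AP-1 match lay at −46 to −40 before the start of Mmp3, at −63 to −57 in Mmp10, at −44 to −38 before the second start of Mmp12 and, on the minus strand, at −35 to −29 in Mmp13. TATAAA was found in Mmp3 at −7 to −2, in Mmp10 at −29 to −24 and in Mmp13 at −16 to −11. A GC box was found in Mmp14, Timp1, Timp2 and Timp3. Mmp14 has 2 GC boxes that adjoin, and no other matches in these sequences touch. Within 250 bases before the start, 4.46% of 32851 mouse promoters hold the AP-1 letters, 12.4% TATAAA, 32.7% the GC box and 10.6% the PU.1 core. The RefSeq table held 9 starts of 8 members, with none for Mmp2 and Mmp9, and the bases printed for the second start of Mmp12 lie within the GENCODE gene and in none of its exons. A match of letters is a description of the sequence and not a measured site.

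The most abundant MMPs, Mmp2 and Mmp14, were higher in the PU.1 KO wound, while Timp1, the most abundant inhibitor, and the other MMP members were lower. In bulk tissue fewer cells of a type and less RNA per cell cannot be told apart, and this holds for every value here. Of the 10 members, 6 were below and 4 above their WT level. Genes were called at a 2-fold difference, with values below 0.1 FPKM raised to 0.1. By this rule 1 of 10 members was lower, Mmp12, and 0 of 10 were higher, beside 4.34% and 2.32% of the 24346 listed genes. All 10 members had at least 0.1 FPKM in 1 or both libraries. Of the 16298 listed genes of that level, 1057 were lower and 565 higher. The median log2 ratio (PU.1 KO over WT) of the members was −0.33, and that of all genes with at least 0.1 FPKM was −0.01. Of the 8 members with at least 5 FPKM, 0 were 2-fold lower and 0 were 2-fold higher, beside 3.13% and 1% of the 9762 genes of that level. At 1.5-fold, 2 of these 8 were lower (Mmp9 and Timp1) and 1 was higher (Mmp2), where 5.86% and 3.79% of the genes of that level passed.

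**Figure D1:**
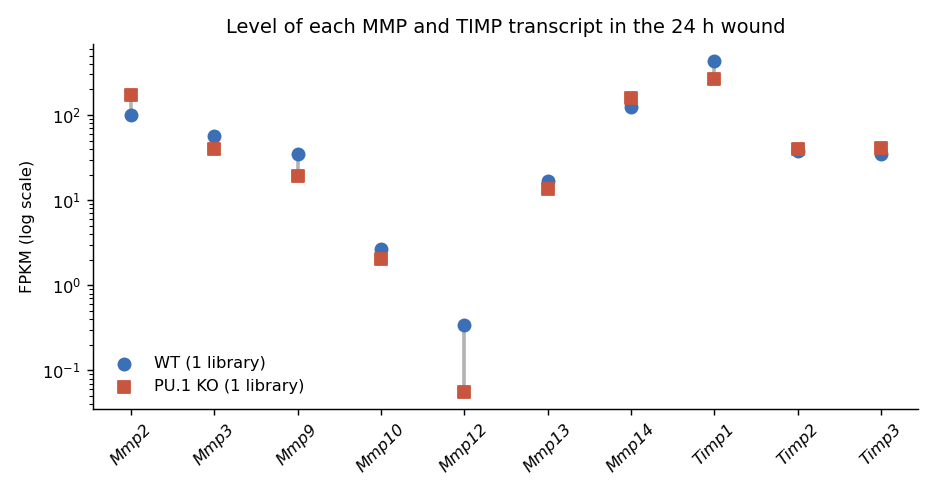
FPKM (log scale) of the 10 members in the WT library (circles) and the PU.1 KO library (squares), 1 library each, joined by a grey line. Timp1 is the highest in both libraries, at 436 and 261 FPKM, and Mmp12 the lowest, at 0.339 and 0.0553 FPKM.

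Mmp2 encodes gelatinase A, which cuts denatured collagen and basement membrane collagen and is made mainly by fibroblasts. It was at 101 FPKM in WT and 170 in PU.1 KO, 1.68-fold higher (1.61 to 1.74). This was the largest difference upward among the members, and it rested on an estimated 4020 and 7743 reads. Among 6538 abundant genes, those that reached 10 FPKM in each library, 1.44% had a higher ratio than Mmp2. Mmp9 encodes gelatinase B, an MMP that neutrophils store in granules. It was at 34.5 FPKM in WT and 19.3 in PU.1 KO, 1.79-fold lower (1.64 to 1.94). Of the same 6538 genes, 1.12% had a lower ratio. The gelatinases thus differed in opposite directions, and the level of Mmp2 was 2.93 times that of Mmp9 in WT (2.76 to 3.12) and 8.79 times in PU.1 KO (8.20 to 9.41).

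The stromelysins, which cut proteoglycans, fibronectin and other MMP precursors, were both lower in PU.1 KO. Mmp3 was at 56.1 FPKM in WT and 39.8 in PU.1 KO, 1.41-fold lower (1.30 to 1.53). Mmp10 was at 2.65 and 2.06 FPKM, 1.29-fold lower with an interval that holds 1 (0.863 to 1.92), since it rested on about 56 and 50 reads. Mmp3 was 21.2 times as abundant as Mmp10 in WT and 19.3 times in PU.1 KO, and the intervals of these ratios overlapped (16.2 to 27.7 and 14.5 to 25.7). The genes are close copies in part, with 65 stretches of 75 bases shared between their transcripts, which is 3.76% of those of Mmp3 and 3.94% of those of Mmp10. Single-end reads of that length cannot be assigned there, and the other 8 members share no such stretch with another gene.

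Mmp13, the collagenase that rodents use where human skin uses MMP1, was at 16.7 FPKM in WT and 13.6 in PU.1 KO, 1.23-fold lower (1.09 to 1.39). This was the smallest difference among the MMPs with an interval that does not hold 1 and a lower value in PU.1 KO. Mmp14 activates MMP2 and cuts collagen at the cell surface. Its level was 123 FPKM in WT and 158 in PU.1 KO, 1.28-fold higher (1.23 to 1.34), on about 4076 and 6013 reads. In WT Mmp14 was the most abundant MMP of the 7, and in PU.1 KO Mmp2 was.

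Mmp12, the elastase by which macrophages are often recognised, was scarce in both libraries. It was at 0.339 FPKM in WT, about 16 reads, and at 0.0553 FPKM in PU.1 KO, about 3 reads. The deposited values are 6.13-fold apart (1.75 to 32.8). With the PU.1 KO value raised to 0.1 FPKM the log2 ratio was −1.76, and this gives the count of 1 member above. Among the 8 members with a promoter entry Mmp12 alone held a PU.1 core within 250 bases of a start, at −87 to −81 of its first start, on the minus strand. The 30 bases around it are shown beside those of Mmp8, a family gene of the same cluster. Mmp8 had reads in WT and was listed at 0 in PU.1 KO, and its match lies at −220 to −214. The same core is at −108 to −102 in Mmp7 of this cluster, which had 1 read in each library.
Mmp12, start 1, chr9:7344298-7344327, plus strand: ccacttcacccaCTTCCTCttccaagactc
Mmp8, chr9:7558197-7558226, plus strand: taactagcacaaCTTCCTCattacacacag

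Timp1, an inhibitor that wounds and inflamed tissues make in large amounts, was at 436 FPKM in WT and 261 in PU.1 KO, 1.67-fold lower (1.59 to 1.75). By level Timp1 ranked 220 of the 24346 listed genes in the WT library. Timp1 is on the X chromosome, and its difference goes with the sex genes described above as well as with the genotype. Timp2, which is made by many cells at a steady level, was at 38.3 FPKM in WT and 40.4 in PU.1 KO, a ratio of 1.06 with an interval from 0.992 to 1.12. Timp3, the inhibitor that binds to the matrix, was at 35.0 and 41.5 FPKM, 1.18-fold higher (1.12 to 1.25). Timp1 alone of the 3 inhibitors had a lower level in PU.1 KO.

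Timp1 and Timp3 each lie within a synapsin gene of the opposite strand. Syn1, around Timp1, was at 0.0484 FPKM in WT and 0.0846 in PU.1 KO, and Syn3, around Timp3, was at 0.290 and 0.329 FPKM. The libraries were made with a stranded kit, and whether the counting used strand is not stated in the sources used. Mmp12 overlaps Mmp1b on the other strand, in no exon of the Mmp12 transcript used here. Timp2 holds Cep295nl within an intron, a gene with no value in these files.

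Ordered by ratio from the lowest, the members were Mmp12, Mmp9, Timp1, Mmp3, Mmp10, Mmp13, Timp2, Timp3, Mmp14 and Mmp2. The intervals of neighbours in this order lay apart at 3 places, between Timp1 and Mmp3, between Mmp13 and Timp2, and between Mmp14 and Mmp2. The intervals of the other neighbours overlapped.

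**Figure D2:**
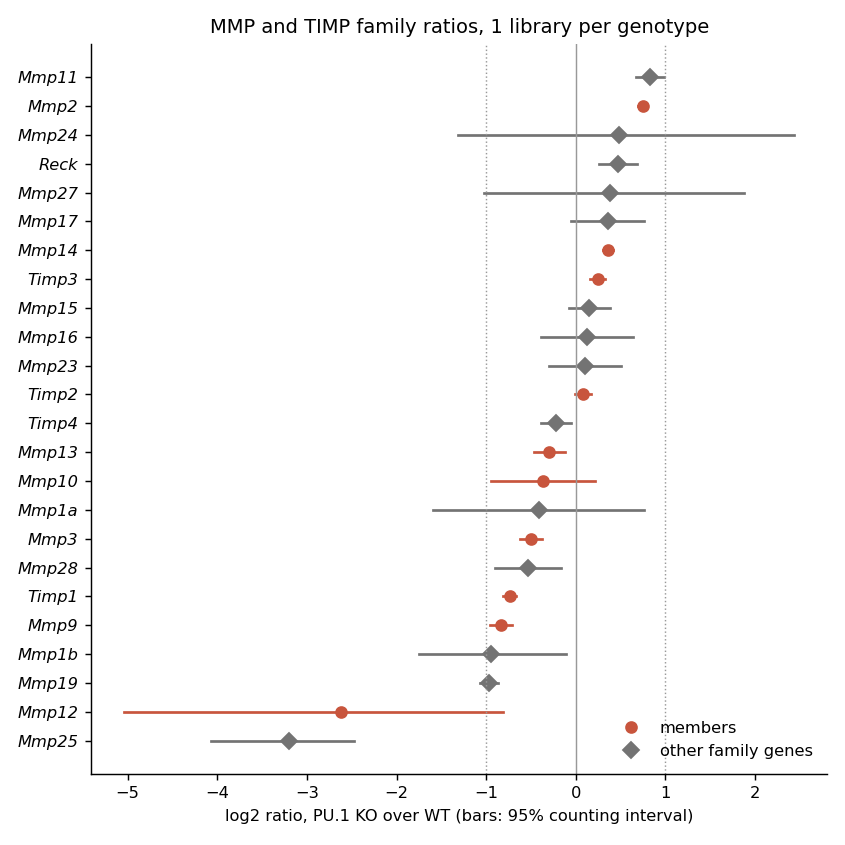
Log2 ratio of PU.1 KO over WT for the members (circles) and the other MMP and TIMP family genes (diamonds) with a value above 0 in both libraries, bars being 95% counting intervals and dotted lines a 2-fold difference. Mmp7, with 1 read in each library, is not drawn. Mmp25 and Mmp12 lie beyond the 2-fold line on the left, and Mmp11 and Mmp2 are the highest, at 0.83 and 0.74.

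The MMP members summed to 335 FPKM in WT and 403 in PU.1 KO, and the TIMP members to 509 and 343 FPKM. The ratio of MMP to TIMP transcripts was 0.658 in WT (0.637 to 0.680) and 1.17 in PU.1 KO (1.14 to 1.21), so that inhibitor transcripts outnumbered enzyme transcripts per length in the WT library and not in the PU.1 KO library. A few genes make up these sums. Mmp2 and Mmp14 held 67.1% of the MMP sum in WT and 81.4% in PU.1 KO, and Timp1 held 85.6% and 76.1% of the TIMP sum. Without Timp1 the ratio was 4.57 in WT (4.41 to 4.74) and 4.92 in PU.1 KO (4.77 to 5.08), with intervals that lie apart. Without Mmp2 and Mmp14 the ratio was 0.217 and 0.218. Most of the difference of the ratio thus rests on these 3 genes. The sums are of transcripts, and neither protein nor enzyme activity was measured.

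**Figure D3:**
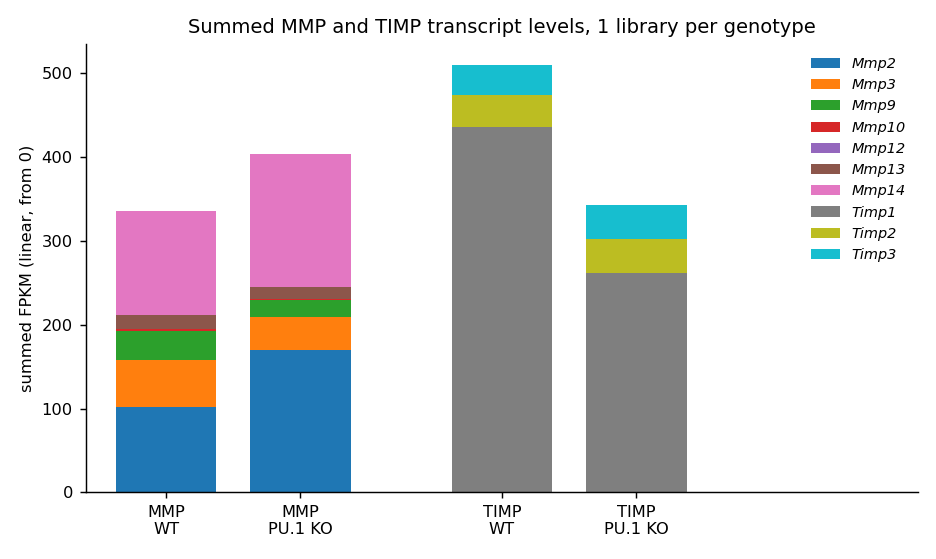
Summed FPKM (linear axis from 0) of the MMP members and of the TIMP members in each library, 1 library per genotype, with each gene a coloured segment. The MMP bar is 335 FPKM in WT and 403 in PU.1 KO, and the TIMP bar is 509 and 343 FPKM, most of it Timp1.

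Pairs that act together shifted unequally. MMP14 needs TIMP2 as a bridge to bind the precursor of MMP2. Mmp14 was 3.22 times Timp2 in WT (3.05 to 3.41) and 3.92 times in PU.1 KO (3.74 to 4.12), and Mmp2 was 2.65 times Timp2 in WT (2.51 to 2.80) and 4.20 times in PU.1 KO (4.01 to 4.41). TIMP1 binds the precursor of MMP9. The level of Mmp9 was 0.0792 of that of Timp1 in WT (0.0746 to 0.0842) and 0.0740 in PU.1 KO (0.0687 to 0.0797), with intervals that overlap.

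The other 18 genes of the family, which include the anchored inhibitor Reck, held 2 genes past the 2-fold rule, both lower, of 16 with at least 0.1 FPKM. Of the 16298 listed genes of that level, 1057 were 2-fold lower and 565 higher. Mmp8, the collagenase of neutrophil granules, was at 23.1 FPKM in WT, about 707 reads, and was listed at 0 in PU.1 KO. Mmp25, a membrane-type MMP of leukocytes, was at 2.19 FPKM in WT and 0.238 in PU.1 KO, 9.19-fold lower (5.54 to 16.8). Both hold a PU.1 core within 250 bases of the start, a motif of 10.6% of all promoters, as do Mmp12 and Mmp7. No other of the 23 family genes with a promoter entry does. Mmp2, Mmp9, Mmp16, Mmp17 and Mmp19 had no entry and could not be searched. Binding of PU.1 at these matches was not measured, and the part of the motif in the values of these genes was not tested.

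Mmp19 was the most abundant of the other MMPs in WT, followed by Mmp8. In PU.1 KO Mmp11 was the most abundant of them, followed by Mmp19. Mmp19 was at 49.8 FPKM in WT and 25.5 in PU.1 KO, 1.95-fold lower (1.82 to 2.09). It overlaps Tmem198b on the opposite strand, which was at 29.9 and 17.7 FPKM, so that reads of these genes could be mixed if strand was not used. Mmp11, stromelysin-3, which is made by stromal cells, was at 17.3 FPKM in WT and 30.7 in PU.1 KO, 1.77-fold higher (1.59 to 1.98). Timp4 was at 8.02 and 6.88 FPKM and Reck at 5.01 and 6.93 FPKM. Mmp20, an enzyme of enamel, and Mmp21 were listed at 0 in both libraries.

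The make-up of the collagenases differed between the libraries. Of the summed Mmp1a, Mmp1b, Mmp8 and Mmp13 transcripts, 42.5 FPKM in WT and 15.1 in PU.1 KO, Mmp8 held 54.3% in WT and 0% in PU.1 KO. Mmp13 held 39.4% in WT and 89.8% in PU.1 KO.

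The cluster of chromosome 9 holds 10 Mmp genes in 427 kb, in the order Mmp13, Mmp12, Mmp1b, Mmp3, Mmp1a, Mmp10, Mmp8, Mmp27, Mmp20 and Mmp7. Of the 9 that were above 0 in at least 1 library, 8 were lower in PU.1 KO and Mmp27 was higher, at 0.399 FPKM in WT and 0.521 in PU.1 KO. Over all genes with at least 0.1 FPKM, 8304 were below and 7994 above their WT level. The intervals of Mmp1a, Mmp7, Mmp10 and Mmp27 hold 1, and Mmp1a rested on about 15 and 13 reads. Mmp7 had 1 read in each library, so its lower FPKM reflects only what 1 read is worth in each. The genes around Mmp8 did not share its loss of reads. Mmp10 on its left was at 2.65 and 2.06 FPKM as given above, and Mmp27 on its right rested on about 8 and 12 reads. The members outside the cluster were Mmp2, Mmp9, Mmp14 and the 3 Timp genes, of which 4 were higher and Mmp9 and Timp1 were lower.

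**Figure D4:**
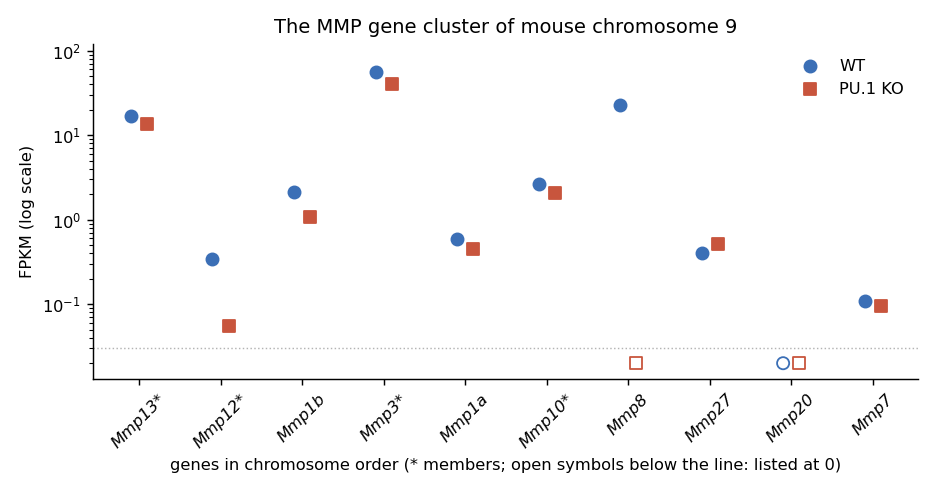
FPKM (log scale) of the 10 Mmp genes of the chromosome 9 cluster in chromosome order, WT as circles and PU.1 KO as squares, with members starred and open symbols below the line for genes listed at 0. Mmp8 is at 23.1 FPKM in WT and listed at 0 in PU.1 KO, while Mmp3 is at 56.1 and 39.8 FPKM.

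The cell types that make these enzymes were read from marker lists, described by counts and sums. Beside these counts, 1057 of all 16298 genes with at least 0.1 FPKM were 2-fold lower and 565 were higher. The markers of keratinocytes and fibroblasts, the cells of skin, were abundant in both libraries, as the labelled tissue has them. Neutrophil markers summed to 12565 FPKM in WT and 3676 in PU.1 KO, with 7 of 9 at least 2-fold lower, a median log2 ratio of −1.81, and Ngp, Ltf, Retnlg and Csf3r listed at 0. Most of the sum is S100a8, at 6600 and 2129 FPKM, and S100a9, at 5311 and 1516 FPKM, which keratinocytes of wounded skin also make. Macrophage markers summed to 724 and 11.7 FPKM, with 10 of 10 lower and a median of −7.06, and 5 were listed at 0. Mast cell markers summed to 742 and 14.2 FPKM, with 7 of 8 lower and a median of −6.92. The part of these cells in the lower values of Mmp8, Mmp9, Mmp12, Mmp25 and Timp1 was not tested.

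Fibroblast markers summed to 2883 FPKM in WT and 3404 in PU.1 KO, with 0 of 10 past 2-fold and log2 ratios from −0.45 to 0.54. The ratio of Mmp2, 0.74, lay above those of all 10 fibroblast markers. Those of Mmp3, Mmp9, Mmp12 and Timp1 lay below all 10, and Mmp14, Timp2, Timp3, Mmp10 and Mmp13 lay within their range. Keratinocyte markers summed to 9866 and 11291 FPKM and had ratios from 0.07 to 0.61, and Mmp2 lay above and Mmp3, Mmp9, Mmp10, Mmp12, Mmp13 and Timp1 lay below all 10. Markers of activated keratinocytes, the cells of the wound edge, had a median of −0.06 over 7 genes. Mmp3, Mmp9, Mmp10, Mmp12 and Timp1 lay below all 7, and Mmp2 and Mmp14 lay above all 7. Endothelial markers had a median of 0.22 over 6 genes.

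Skeletal muscle markers differed more, at a sum of 9474 FPKM in WT and 15843 in PU.1 KO, with 2 of 8 (Myh3 and Myh8) at least 2-fold higher and a median of 0.67. That is close to the ratio of Mmp2, and the part of muscle in the value of Mmp2 was not tested. Of the osteoclast markers Acp5 was at 20.3 and 15.5 FPKM and Ctsk at 47.3 and 61.5 FPKM, and the others were near 0. Cartilage and bone markers were near 0, at a sum of 0.847 and 0.821 FPKM. Adipocyte markers had a median of −0.76 over 4 genes. This median lies between the ratios of Mmp9, −0.84, and Timp1, −0.74, and the part of adipocytes in those values was not tested.

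**Figure D5:**
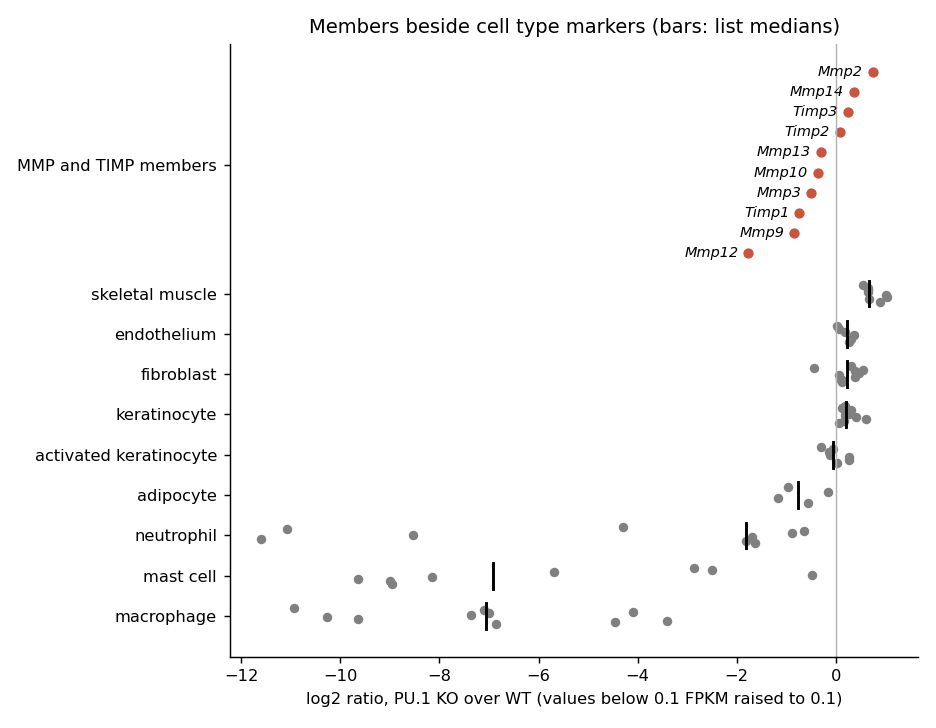
Log2 ratio of PU.1 KO over WT, with values below 0.1 FPKM raised to 0.1, for the 10 members (named points) and for marker genes of 9 cell types (grey points, with a bar at each list's median). Mmp2 lies near the skeletal muscle median of 0.67, and the medians of the macrophage and mast cell markers, −7.06 and −6.92, lie to the left of all 10 members.

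Genes that activate latent MMPs or belong to the plasminogen system were listed with proteases of mast cells and neutrophils. Of 16 with at least 0.1 FPKM, 7 were 2-fold lower and 0 were higher, with a median log2 ratio of −0.80. Among all 16298 genes of that level, 1057 were 2-fold lower and 565 higher. The 7 were Plaur, the mast cell proteases Cma1, Tpsb2 and Mcpt4, and the neutrophil proteases Elane, Prtn3 and Ctsg. Plaur, the receptor that holds urokinase at the cell surface, was at 119 FPKM in WT and 42.1 in PU.1 KO, 2.82-fold lower (2.60 to 3.05). The mast cell proteases, which can activate MMP precursors, were nearly gone. Cma1 was at 223 and 0.436 FPKM, Tpsb2 at 224 and 0.788 FPKM, and Mcpt4 at 80.5 FPKM in WT and listed at 0 in PU.1 KO. These proteases are also in the mast cell marker list. The neutrophil proteases were scarce, with about 11 and 1 reads for Elane, 37 and 2 for Prtn3, and 5 and 1 for Ctsg, whose interval holds 1. Serpinb2, an inhibitor of plasminogen activators and the most abundant gene of the list, was at 472 and 462 FPKM.

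Related metalloproteinases of the ADAM and ADAMTS families, listed with Bmp1 and Mme, mostly stayed within 2-fold. Of these, 1 of 19 was lower and 0 were higher, with a median of −0.05. Of all 16298 genes with at least 0.1 FPKM, 1057 were 2-fold lower and 565 higher. Adam8, a membrane proteinase of leukocytes, was at 54.1 FPKM in WT and 10.8 in PU.1 KO, 5.0-fold lower (4.53 to 5.52). Bmp1, which trims procollagen, was at 57.0 and 47.0 FPKM. Adamts1, which cuts versican, was at 42.2 and 70.9 FPKM, 1.68-fold higher, as was Mmp2. Among the partners, receptors and clearance genes of MMPs, 3 of 13 were lower and 0 were higher, with a median of 0.01. Itgam and Itgb2, the subunits of a leukocyte integrin that binds MMP9, were at 24.8 and 20.4 FPKM in WT and at 0.378 and 0.165 FPKM in PU.1 KO. Thbs1, a matrix protein that takes part in the uptake of MMP2, was at 252 and 96.0 FPKM. Lcn2, which forms a complex with MMP9, was at 1125 and 779 FPKM, and Bsg, an inducer of MMPs on cell surfaces, at 256 and 262 FPKM.

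The cytokines that are known to induce MMP genes were divided, with 4 of 12 lower, 1 higher and a median of −0.43. For this and the next 2 lists, the counts over all 16298 genes with at least 0.1 FPKM were 1057 lower and 565 higher. Il1b was at 63.9 FPKM in WT and 0.169 in PU.1 KO, and Osm was at 15.1 FPKM in WT and listed at 0 in PU.1 KO. Tnf was at 6.40 and 1.31 FPKM, and Il17a was at 0.526 FPKM in WT and listed at 0 in PU.1 KO. Lif was the higher gene, at 1.68 and 4.42 FPKM. Il6, the most abundant of them, was at 70.3 and 50.4 FPKM. Transcription factors of the AP-1, ETS and related families, some of which bind the AP-1 letters printed above, stayed within 2-fold in 15 of 15 genes, with a median of 0.11. Junb was at 248 and 299 FPKM and Stat3 at 97.9 and 126 FPKM. Matrix substrates held 1 lower gene of 16 and 0 higher, with a median of 0.09. This was Spp1, osteopontin, which several MMPs cut, at 206 FPKM in WT and 51.2 in PU.1 KO. Col3a1, a fibrillar collagen, was at 1042 and 1110 FPKM, and Dcn, a proteoglycan of collagen fibrils, at 690 and 959 FPKM.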

How the data were processed

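The authors prepared mRNA libraries with a stranded kit, read them as single-end reads and mapped them to mm10. The submitters' processing notes name TopHat2 2.1.1, Bowtie2 2.2.8, SAMtools 0.1.18 and Cuffdiff 2.2.1, and the study's methods name Cuffnorm. Neither the gene annotation nor the strand setting is given in the sources used. Deposited values are FPKM, which the authors normalized for length and depth.

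The 10 members, the gene lists and the calling rule were chosen with earlier results of these data known. Values below 0.1 FPKM were raised to 0.1 for calls, medians and log2 ratios of lists, while folds, intervals and ratios of single genes used the deposited values. Read numbers were estimated from the FPKM steps of low genes with 1 transcript and from GENCODE transcript lengths less 200 nt, of the longest transcript linked to RefSeq. Of 1306 and 1272 low values in the WT and PU.1 KO libraries, 78.1% and 78.7% lay within 0.1 reads of a whole number. A different transcript length would change the width of an interval but not a ratio. For each sum an interval was approximated from the counting errors of its genes. The functions were tested on simulated data. Genes named were the members, list genes with at least 10 FPKM and a 2-fold difference, the 2 most abundant genes of each list, family genes at 0, annotated neighbours and Spi1. Mmp1a, Mmp1b, Mmp7, Mmp25, Mmp27, Timp4, Reck, Adamts1, Tnf, Il17a, Lif, Elane, Prtn3, Ctsg and single marker genes were named after their values were seen. The number and sex of the pups could not be modelled, and no p-value was calculated. Alternatives were another floor, a pseudocount, a filter on low values, 2 scalings and other fold thresholds. Python 3.11.15, numpy 2.4.6, pandas 2.3.3, scipy 1.17.1 and matplotlib 3.10.9 were used.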

Additional observations from a re-analysis of the deposited data

How the results depend on the processing

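The count of 1 member lower, which is Mmp12, became 0 with a floor of 1 FPKM, with a pseudocount of 1 FPKM and among genes of at least 5 FPKM. At a fold threshold of 1.5 it was 3, with 1 member higher, and at 3 it was 1. The count of 2 other family genes lower became 1 among genes of at least 5 FPKM and 4 at 1.5-fold. The log2 ratio of Mmp12 was 0 with the floor of 1 FPKM and −0.34 with the pseudocount. Of 48 alternative log2 ratios of single members, 46 lay inside the counting interval, and the other 2 are those of Mmp12. The median log2 ratio of the members was between −0.33 and −0.11 throughout. Scaling to the same FPKM sum or the same median moved the log2 ratios of 9 members by 0.05 or 0.01 and not that of Mmp12, whose PU.1 KO value is at the floor. A further 3 ways to sum were chosen after seeing the data. The MMP to TIMP ratio was 4.57 in WT and 4.92 in PU.1 KO without Timp1, 0.862 and 1.36 over all listed Mmp and Timp genes, and 0.217 and 0.218 without Mmp2 and Mmp14. No paired analysis was possible because each group has 1 library. Depth limits Mmp10, Mmp12 and most of the low family genes.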
